A study of Homo sapiens with 28 samples.

Results

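The 40 genes described here mostly encode subunits of RNA polymerases I, II and III or factors for assembly and nuclear import of these enzymes. They were chosen by name, as every gene whose symbol begins with POLR1, POLR2 or POLR3 together with TWISTNB, ZNRD1, CD3EAP, CRCP, RPAP1, RPAP2, GPN1, GPN2 and GPN3, and make up 40 of the 13897 genes listed in any of the RNA tables. The rule reads gene names and no measured value. RNA was sequenced from NCI-H2009 and NCI-H596, established human lines labelled as non-small cell lung cancer of adenocarcinoma histology with wild-type genotype. In one experiment cells were transfected with siRNA against RUVBL1 (siBL1) or with the siRNA named siNT, for 2.5 days in H2009 and for 3 days in H596. In the other, cells of each line received 100 nM of Compound B or of Compound C for 24 h or were left untreated, and the labels name no vehicle for the untreated cells. The series design describes Compound B as RUVBL1 inhibition, and the compounds are known here by these code names. Each of the 10 groups had 2 libraries, numbered replicate 1 and replicate 2, which gives 20 RNA libraries. Nothing in the labels says that the replicates came from separate cultures, so p-values measure the spread between these libraries, which may be technical.

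RUVBL1 and RUVBL2 are related ATPases. They form part of the R2TP complex and of the larger PAQosome, a chaperone assembly that works with HSP90 and is known for building multi-subunit enzymes, RNA polymerases among them. RNA polymerase I (Pol I) makes the large ribosomal RNA precursor, RNA polymerase II (Pol II) makes messenger RNA, and RNA polymerase III (Pol III) makes transfer RNA, 5S ribosomal RNA and other short RNAs. The enzymes share a set of small subunits, and each has its own pair of large subunits that form the active centre. What was measured here is the messenger RNA of each subunit, not the protein or the assembled enzyme.

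Levels are FPKM, the fragments counted on a transcript divided by its length and by the number of mapped fragments, so that genes can be compared per length. The files hold no read counts, so the depth behind each value is unknown. The authors' tables were 3 in number, 1 for the 12 compound libraries and 1 for each line's 4 siRNA libraries, and each table was analysed alone. RUVBL1 messenger RNA stood at 1.75 and 1.11 FPKM in the siBL1 libraries of H2009 against 87.8 and 64.3 in siNT, and at 2.26 and 2.52 against 111.9 and 123.4 in H596. All 5 epithelial markers listed (EPCAM, KRT8, KRT18, KRT19, CDH1) were present, with summed levels of 827 to 4389 FPKM per library. No leukocyte or endothelial marker had a row in the tables (0 of 3 and 0 of 2), and the fibroblast markers (1 or 2 of 3 listed) summed to 0.298 to 5.39 FPKM. KRT19 was the epithelial marker with the largest difference under Compound B in H2009, with a log2 difference of -1.27 (adjusted p = 0.0956 unpaired and 0.000311 paired). KRT18 was also lower in both B libraries than in both untreated libraries, and EPCAM and KRT8 overlapped. CDH1 was higher with B, at 248 and 218 FPKM against 156 and 148 untreated. The part of epithelial marker levels in the polymerase results was not tested.

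A gene counted as changed when limma, on log2(FPKM + 1), gave a Benjamini-Hochberg adjusted p under 0.05 over all genes of the table; this scale understates the differences of low genes. The main fit compared group means and is called unpaired. Replicates with the same number deviated together in every pair of groups, so the fit that adds the replicate number as a term, called paired, is given wherever it changes a call. All tables list the members except POLR2J2, which had a row only in the H2009 siRNA table. Tests covered genes with a mean of at least 1 FPKM, which left 39 of 39 members in the compound table, 39 of 39 in the H596 siRNA table and 38 of 40 in the H2009 siRNA table. The members left out there were POLR2J2, with a mean of 0.428 FPKM, and POLR2J4, with 0.987. POLR2J, POLR2J2, POLR2J3 and POLR2J4 are near-identical copies, so their values are uncertain where reads could be split among them, and POLR2M shares its locus with a neighbouring read-through gene.

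Levels of the members in untreated cells ranged widely. The highest mean in both lines was that of POLR2L, a small zinc-binding subunit common to the 3 enzymes, at 253 and 157 FPKM in H2009 and 170 and 119 in H596. POLR2K, another shared zinc-binding subunit, stood at 111 and 128 in H2009 and at 78.6 and 96.3 in H596. POLR2A, the largest Pol II subunit, whose C-terminal repeats are phosphorylated during transcription, was at 72.8 and 33.5 in H2009 and 61.6 and 31.0 in H596. Its partner POLR2B, the second largest subunit, was at 69.6 and 93.3 in H2009. The matching large subunits of Pol I, POLR1A and POLR1B, stood at 15.2 and 12.6 and at 27.7 and 33.6 in H2009. Of the large subunits of Pol III, POLR3A was at 8.96 and 8.4 and POLR3B at 6.16 and 7.35 in that line. The lowest mean in H2009 belonged to POLR2J4, at 1.72 and 1.03. Neighbours in this order often overlapped between their libraries, as POLR2I (69.0 and 46.3), POLR2A and POLR3K (50.0 and 55.3) did. The order is that of the untreated cells only. In the siNT libraries of H2009 POLR2L was at 22.7 and 19.6 FPKM, well below POLR2K at 108 and 120. In those of H596 POLR2L kept the highest mean, 117 FPKM.

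**Figure D1:**
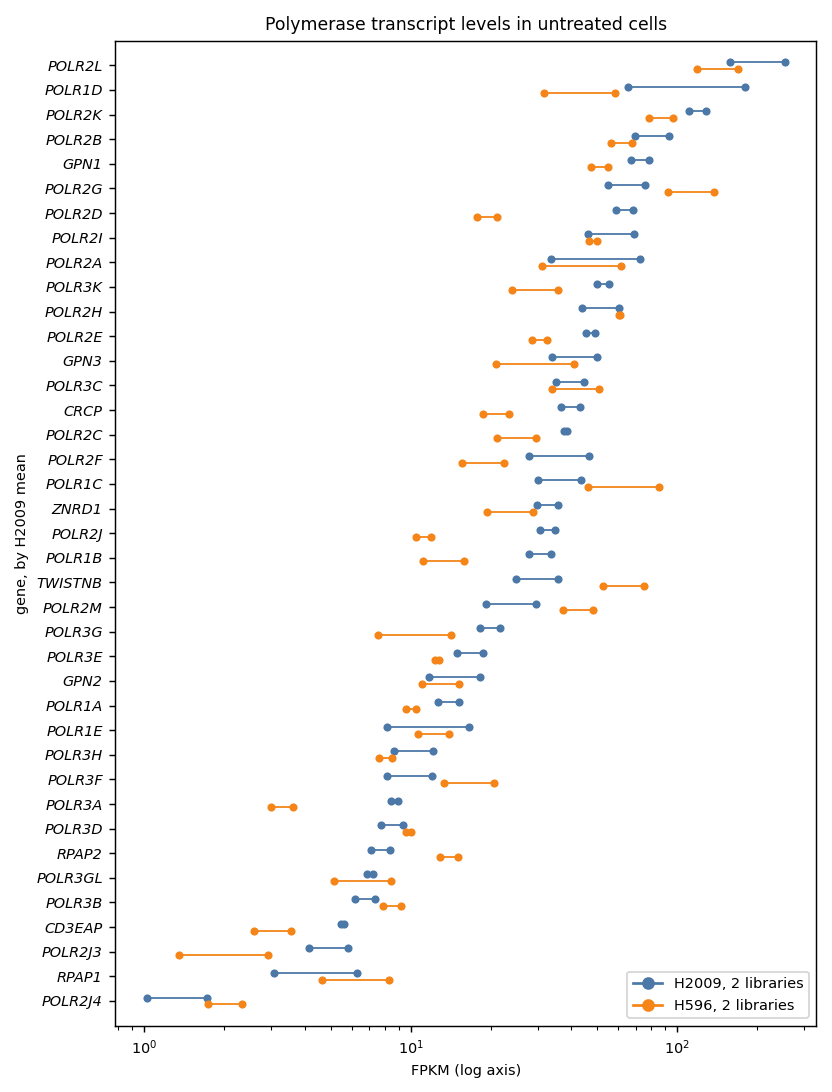
FPKM on a log axis of the 39 polymerase genes in untreated H2009 (blue) and untreated H596 (orange), each point 1 library and each line joining the 2 libraries of a group. POLR2L was highest in both lines, and POLR2D, POLR2J and POLR3A in H596 lay well below both H2009 libraries.

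The lines differed in several subunits before any treatment. In untreated H596 against untreated H2009, 8 of 39 members were lower and 2 higher in the unpaired fit, where 19.1% of all genes were lower and 24.1% higher. The paired fit called 16 members lower and 8 higher, against 29.6% and 36.5% of all genes. POLR2D, which with POLR2G forms the stalk of Pol II, was at 17.7 and 21.1 FPKM in H596 and at 59.1 and 68.4 in H2009. Its log2 difference of -1.67 (SE 0.21) had an adjusted p of 0.000164, and the libraries of the lines lay far apart. POLR2J, one member of the alpha-like pair of Pol II, had a log2 difference of -1.47 (adjusted p = 0.00045). The largest Pol III subunit, POLR3A, was at 3.00 and 3.60 FPKM in H596 and 8.96 and 8.4 in H2009, with a log2 difference of -1.17 (adjusted p = 0.000951). POLR1B was lower by a log2 difference of -1.14 (adjusted p = 0.00466). Smaller differences in the same direction were called for CRCP, a stalk subunit of Pol III, at -0.89, for POLR3G, a part of its initiation subcomplex, at -0.87, for CD3EAP, of the Pol I dimer related to TFIIF, at -0.70, and for the shared POLR2E at -0.61. TWISTNB, the Pol I stalk subunit, was higher in H596 at 52.5 and 75.2 FPKM against 24.8 and 35.6 (log2 difference 1.05, adjusted p = 0.0117). RPAP2, a Pol II phosphatase and assembly factor, was also higher, by 0.78 on the log2 scale (adjusted p = 0.00886). POLR2A did not differ by more than its spread between the lines (log2 difference -0.17, 95% interval -1.53 to 1.18). Without replicate 1 of untreated H596 or of untreated H2009 the call count went from 10 to 6. In the siNT libraries, analysed apart for each line, POLR2J and POLR2E were instead higher in H596. POLR2J averaged 18.2 FPKM in H596 and 9.86 in H2009, and POLR2E 43.8 and 16.4. TWISTNB was near equal there, at 37.1 and 35.6. The other members named as called kept the direction of their means, and the siNT levels of the lines were not tested against each other.

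With Compound B in H2009 the unpaired fit called POLR3E, POLR1A and POLR3B lower. These were 3 of 39 members (7.69%), a share near that of all genes called lower, 5.02%, and 0 members rose, where 6.36% of all genes did. Other subunits of the same enzymes, among them POLR3A, POLR1E and CD3EAP, had higher means with B and were not called. The paired fit called 10 members lower and 2 higher, against 19.5% of all genes lower and 18.8% higher. Both B libraries lay below both untreated libraries for 15 of 39 members and above them for 4, against 28.1% and 26.3% of all genes. The median log2 difference over the 39 members was -0.13, and over all genes tested -0.01. In bulk RNA, fewer cells with a transcript and less of it per cell cannot be told apart. FPKM is relative within a library. Summed FPKM was 525804 and 503785 with B in H2009 against 632540 and 629210 untreated, and its part in these differences was not tested.

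POLR3E, which with POLR3D forms a Pol III dimer related to the initiation factor TFIIF, was at 18.7 and 14.9 FPKM in untreated H2009 and dropped to 7.46 and 6.28 in the B libraries. Its log2 difference was -1.17 (SE 0.22, adjusted p = 0.0107). POLR1A, the largest Pol I subunit, stood at 5.72 and 6.36 FPKM against 15.2 and 12.6, a log2 difference of -1.08 (SE 0.26, adjusted p = 0.0283). For both genes every B library was below every untreated library. POLR3B, the second largest Pol III subunit, was at 3.38 and 3.59 FPKM against 6.16 and 7.35, with a log2 difference of -0.79 (SE 0.17, adjusted p = 0.0186). Its large partner POLR3A was at 10.2 and 10.5 against 8.96 and 8.4, so that the POLR3A to POLR3B ratio of FPKM was 3.02 and 2.91 with B and 1.45 and 1.14 in untreated cells. These calls rest on few libraries. Leaving out 1 of the 4 libraries gave adjusted p of 0.0348 to 0.0781 for POLR3E, 0.0799 to 0.169 for POLR1A and 0.0502 to 0.135 for POLR3B, and POLR3E alone stayed under the threshold, without untreated replicate 2. With the 6 H2009 libraries fitted alone the adjusted p were 0.0746, 0.140 and 0.115.

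The promoters of these 3 genes are shown beside that of POLR2A, the member with the largest upward difference with B. Each line is the 250 bases upstream of a RefSeq start on the GRCh38.p14 build, 5′ to 3′ on the gene's strand. POLR1A is chr2:86105887-86106136 on the minus strand, and POLR3B (the first of its 2 RefSeq starts) chr12:106357498-106357747, POLR3E chr16:22297159-22297408 and POLR2A chr17:7484116-7484365 are on the plus strand. Capitals mark matches on either strand to 5 short motifs. The E-box was searched as CACGTG and the GC box as GGGCGG. The CCAAT box was searched as its name spells it. The letters used for an ETS-type site were CCGGAAG. For a TATA box they were TATAAA. No match shown overlaps another motif.
POLR1A: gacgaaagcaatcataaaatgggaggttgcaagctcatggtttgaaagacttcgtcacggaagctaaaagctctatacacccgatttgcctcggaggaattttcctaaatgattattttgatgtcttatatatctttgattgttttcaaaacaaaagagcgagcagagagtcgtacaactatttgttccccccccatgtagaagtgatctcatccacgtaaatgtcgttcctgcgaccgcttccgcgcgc
POLR3B: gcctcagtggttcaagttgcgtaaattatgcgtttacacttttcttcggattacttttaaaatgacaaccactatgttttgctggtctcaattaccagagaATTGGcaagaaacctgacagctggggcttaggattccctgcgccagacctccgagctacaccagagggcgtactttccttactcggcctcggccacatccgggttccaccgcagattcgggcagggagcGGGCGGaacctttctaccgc
POLR3E: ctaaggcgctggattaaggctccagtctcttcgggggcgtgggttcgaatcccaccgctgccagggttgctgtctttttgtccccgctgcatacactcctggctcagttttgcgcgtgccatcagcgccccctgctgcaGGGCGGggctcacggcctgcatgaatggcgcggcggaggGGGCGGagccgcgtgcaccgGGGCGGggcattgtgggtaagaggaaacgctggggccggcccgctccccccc
POLR2A: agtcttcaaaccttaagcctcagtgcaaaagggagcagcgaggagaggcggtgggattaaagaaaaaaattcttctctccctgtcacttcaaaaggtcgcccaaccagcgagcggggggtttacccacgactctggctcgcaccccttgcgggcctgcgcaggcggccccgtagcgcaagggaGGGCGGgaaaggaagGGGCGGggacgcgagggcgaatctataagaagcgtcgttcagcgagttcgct
POLR3E held 3 GC boxes, POLR2A held 2, POLR3B held 1 with 1 CCAAT box, and POLR1A held none of the 5 motifs in this window. Over all 35116 RefSeq windows of this length the share with a match was 42.6% for the GC box, 32% for CCAAT, 10.7% for TATAAA, 8.52% for CCGGAAG and 6.34% for CACGTG. RefSeq windows were matched for 28 of 40 members, by current symbol or synonym. Their 36 windows held GGGCGG in 66.7%, CCGGAAG in 25%, CCAAT in 19.4%, CACGTG in 8.33% and TATAAA in 2.78%. These matches describe letters and were not tied to any measurement of binding.

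Other Pol I members stood lower with B in H2009 without passing the unpaired test. POLR1B was at 14.8 and 18.0 FPKM against 27.7 and 33.6 (log2 difference -0.86, adjusted p = 0.0547, paired 0.00117). ZNRD1, the RNA-cleavage subunit of Pol I, was at 17.5 and 18.6 against 29.8 and 35.8 (log2 difference -0.82, adjusted p = 0.161, paired 0.0071). In the paired fit, 3 of 6 Pol I members, 4 of 11 Pol III members and 2 of 10 Pol II members were lower, against 19.5% of all genes. Of the subunits shared by Pol I and III 1 of 2 was lower, and of those common to the 3 enzymes 0 of 5. None of the 5 assembly and import factors was lower. These groups are small, and differences between them were not tested. The Pol III members called lower were POLR3E, POLR3B, POLR3G and POLR3K, the last being the subunit that aids RNA cleavage. POLR3G was at 12.4 and 9.91 FPKM against 18.2 and 21.6, and its paralog POLR3GL, which can take its place in the enzyme, at 9.22 and 6.63 against 6.86 and 7.24. The Pol II members called lower in that fit were POLR2G, of the stalk, and POLR2I, which acts in RNA cleavage and start-site choice. The subunit shared by Pol I and III was POLR1D. Called higher there were POLR2A and POLR2J3, one of the near-identical copies (log2 difference 0.75, paired adjusted p = 0.00209).

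POLR2A had the largest difference of any member with Compound B in both lines, and it was upward. With Compound B it was at 192.4 and 104.9 FPKM in H2009 against 72.8 and 33.5 untreated, and at 140.7 and 82.6 in H596 against 61.6 and 31.0. In both lines each B library was above both untreated libraries. The log2 difference was 1.51 (SE 0.60, adjusted p = 0.149) in H2009 and 1.28 (SE 0.60, adjusted p = 0.903) in H596, so neither passed the unpaired test. Within replicates the rise passed the paired test in both lines, with adjusted p of 0.0001 and 0.00842. Replicate 1 was above replicate 2 for POLR2A in all 10 groups, by 0.36 to 1.87 on the log2 scale, where the median gene differed by 0.07 to 0.38. The difference of the B effect between the lines was -0.22 (95% interval -2.14 to 1.69 in the unpaired fit, which includes the gap between replicates), and neither fit called it.

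The groups overlapped for its partner. POLR2B was at 81.0 and 95.8 FPKM with B in H2009 against 69.6 and 93.3, and at 49.7 and 71.8 in H596 against 56.4 and 67.7. The POLR2A to POLR2B ratio of FPKM was 2.37 and 1.1 with B and 1.05 and 0.358 untreated in H2009, and 2.83 and 1.15 against 1.09 and 0.458 in H596. The POLR2A to POLR1A ratio was 33.7 and 16.5 with B against 4.79 and 2.65 untreated in H2009. Since POLR1A was itself called lower there, this ratio restates differences already given. In H596 that ratio was 22.2 and 11.1 against 6.43 and 2.97.

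**Figure D2:**
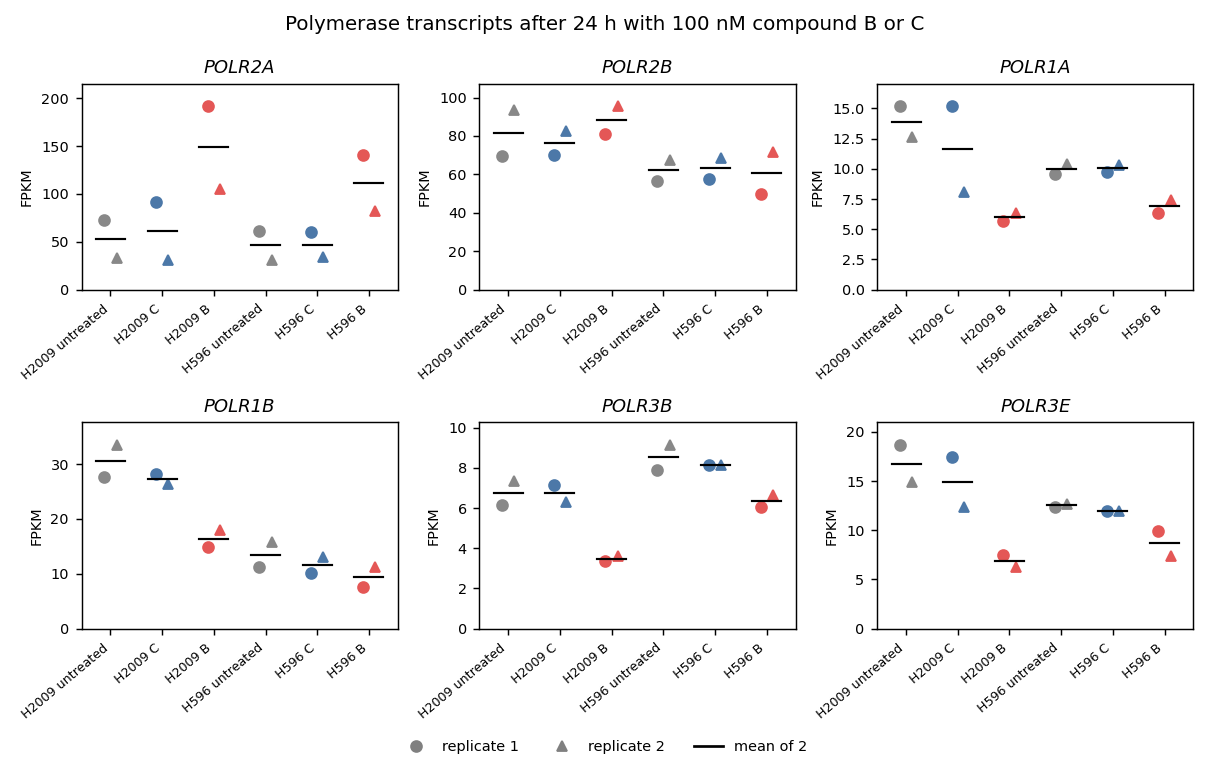
FPKM of 6 polymerase genes in the compound table, circles for replicate 1, triangles for replicate 2 and a line for the mean of the 2 libraries, with untreated in grey, C in blue and B in red. POLR2A with B reached 192.4 and 104.9 FPKM in H2009 while POLR1A, POLR3B and POLR3E lay below both untreated libraries in both lines.

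In H596 no member passed the unpaired test with Compound B, and neither did any other gene (0%), although 735 of all genes and 0 members had an unadjusted p under 0.05 in limma. The paired fit called POLR2A higher and 0 members lower, against 1.48% of all genes higher and 0.767% lower. Both B libraries lay below both untreated libraries for 7 of 39 members and above them for 1, against 15.2% and 12.8% of all genes. Among the 7 were the genes called in H2009. POLR3E was at 9.91 and 7.42 FPKM against 12.4 and 12.7 (log2 difference -0.50, adjusted p = 0.866), and POLR1A at 6.34 and 7.45 against 9.57 and 10.4 (-0.48, adjusted p = 1). POLR3B was at 6.03 and 6.67 against 7.87 and 9.16 (-0.37, adjusted p = 0.885). ZNRD1 stood at 14 and 17.2 against 19.3 and 28.7 (-0.57), and CD3EAP at 2.19 and 2.0 against 2.58 and 3.55 (-0.38). The B effect itself differed between the lines for 0 of 39 members in either fit, against 0.454% of all genes unpaired and 8.24% paired. For POLR3E the difference of the effects was 0.67 (95% interval -0.03 to 1.38).

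With Compound C, given at the dose and for the time of B, 0 of 39 members were called in either line. In H2009 0.00782% of all genes were called unpaired and 0.0156% paired, and in H596 0% by both fits. At an unadjusted p under 0.05 limma gave 9 genes in H2009 and 20 in H596, and 0 members in each. POLR2A was at 91.8 and 31.3 FPKM with C in H2009 and 59.9 and 34.1 in H596. Its log2 differences from untreated were 0.12 (95% interval -1.23 to 1.47) and 0.05 (-1.31 to 1.40) in the unpaired fit. These intervals include the gap between replicates and are too wide to show that C left it as it was. The untreated libraries were at 72.8 and 33.5 in H2009 and at 61.6 and 31.0 in H596. Within replicates C was thus above untreated in replicate 1 of H2009 and replicate 2 of H596, and below it in the others. POLR3B was at 7.16 and 6.29 FPKM with C in H2009, with a 95% interval of -0.39 to 0.38 for its log2 difference.

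B and C were compared directly in each line, with dose and duration matched. In H2009 POLR3E and POLR3B were lower with B than with C, and 0 members were higher, against 5.28% of all genes lower and 6.16% higher. The log2 difference was -1.0 (SE 0.22, adjusted p = 0.0212) for POLR3E and -0.78 (SE 0.17, adjusted p = 0.0194) for POLR3B. Both calls were lost without either B library, and the count reached 4 without C replicate 1. The paired fit called 12 members lower and 2 higher, against 20.6% and 18.5% of all genes. POLR2A was higher with B by 1.39 (95% interval 0.03 to 2.74, adjusted p = 0.18, paired 0.000173) in H2009 and by 1.23 (-0.12 to 2.59, adjusted p = 1, paired 0.0108) in H596. POLR1A was lower with B than with C by a log2 difference of -0.79 in H2009 (adjusted p = 0.0855, paired 0.0146). In H596 0 of 39 members were called unpaired, where 0.00782% of all genes were. The paired fit there called POLR2A higher and 0 members lower, against 1.13% and 0.423% of all genes.

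**Figure D3:**
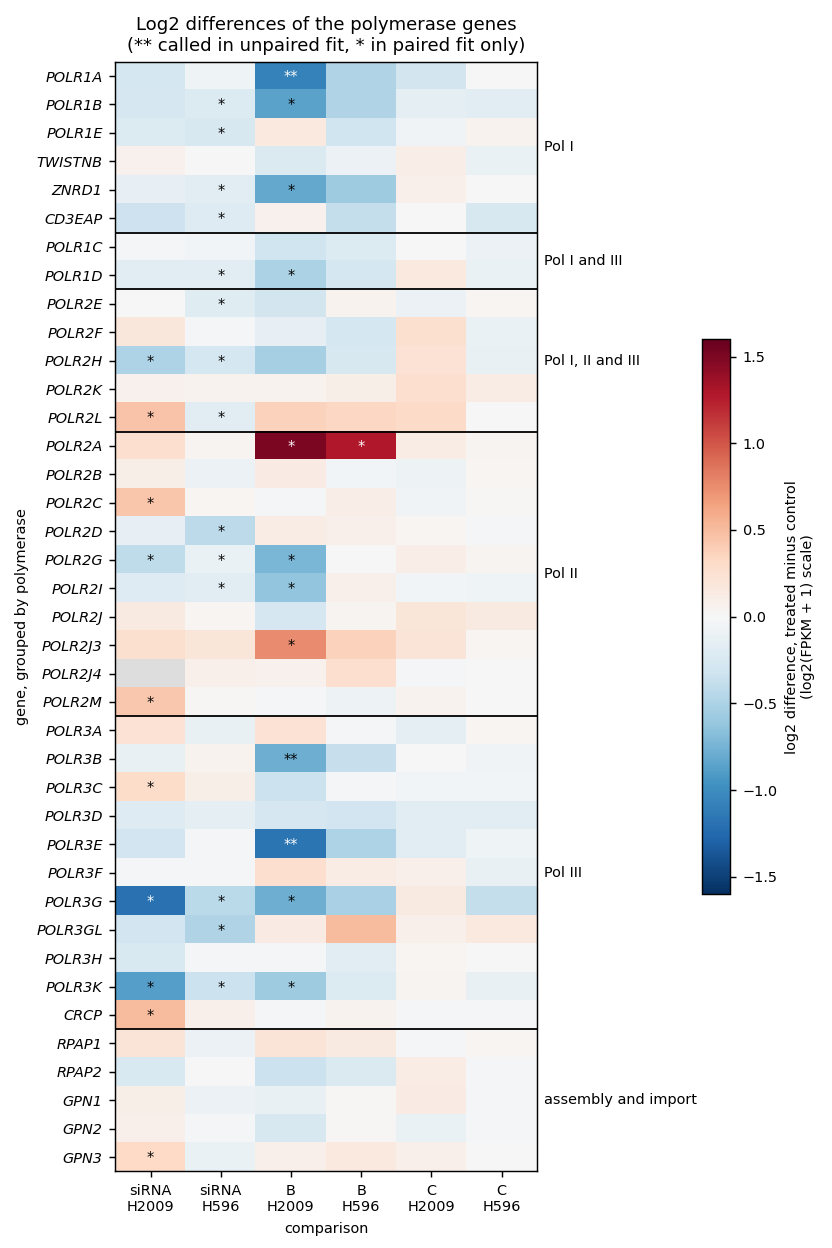
Log2 difference between treated and control libraries (log2(FPKM + 1), colour scale from -1.6 to 1.6) for 39 polymerase genes in 6 comparisons, with rows grouped by enzyme, double asterisks for calls in the unpaired fit, single asterisks for calls in the paired fit only and grey for POLR2J4, which was not tested in the H2009 siRNA table. POLR2A is the darkest red cell with B in both lines, POLR1A and POLR3E the darkest blue cells with B in H2009, and POLR3G the darkest blue cell with siRNA in H2009.

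After RUVBL1 siRNA the largest downward difference among the members in each line belonged to a Pol III subunit. Pol III is also the largest group, with 11 members tested in each line. Its median log2 difference was -0.21 in H2009 and -0.04 in H596, beside -0.25 and -0.19 for the Pol I members, so nothing particular to Pol III is shown. With 4 libraries a table the unpaired limma fit called no gene at all in H2009 (0%) or in H596 (0%), RUVBL1 itself included (log2 difference -4.98, adjusted p = 0.56 in H2009, and -5.13, adjusted p = 0.158 in H596). At an unadjusted p under 0.05 there were 532 genes and 1 member in H2009, and 137 genes and 0 members in H596. The paired fit called 6 members higher and 4 lower in H2009, against 15.4% and 27.0% of all genes. In H596 it called 0 higher and 14 lower, against 19.8% and 26.6%. In either direction this fit called 42.4% of all genes in H2009 and 46.4% in H596. With 4 libraries and a replicate term, little is left to measure the spread of each gene. The paired p-values after siRNA therefore lean on the spread that limma estimates over all genes. Both siBL1 libraries lay above both siNT libraries for 3 of 38 members in H2009 and below them for 6, against 12.1% and 18.9% of all genes. In H596 the counts were 0 and 5 of 39, against 9.00% and 8.64%. The median log2 difference of the members was -0.02 in H2009 and -0.09 in H596, and of all genes -0.08 and -0.01. With quantile normalization the medians became 0.06 and -0.04 for the members and 0.01 and 0.00 for all genes, and the paired calls became 10 higher and 4 lower in H2009 and 2 higher and 12 lower in H596.

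POLR3G was at 6.46 and 8.41 FPKM with siBL1 in H2009 against 15.5 and 21.4 with siNT. Its log2 difference was -1.20 (SE 0.34, adjusted p = 0.967, paired 0.000279). In H596 it was low in all libraries, at 1.49 and 3.55 against 2.33 and 5.17, with a log2 difference of -0.43 (paired adjusted p = 0.00192). The 4 libraries of H2009 did not overlap, and those of H596 did. POLR3GL stood at 15.2 and 7.67 FPKM against 19.1 and 9.63 in H2009 and at 6.04 and 5.89 against 9.55 and 8.02 in H596, the second a log2 difference of -0.49 (adjusted p = 1, paired 0.0012). The POLR3G to POLR3GL ratio of FPKM in H2009 was 0.426 and 1.1 with siBL1 and 0.808 and 2.22 with siNT. POLR3K was at 17.0 and 11.5 FPKM against 29.8 and 23.9 in H2009 (log2 difference -0.88, adjusted p = 0.967, paired 0.00069) and at 28.8 and 19.9 against 36.6 and 25.5 in H596 (-0.34, paired 0.000735).

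**Figure D4:**
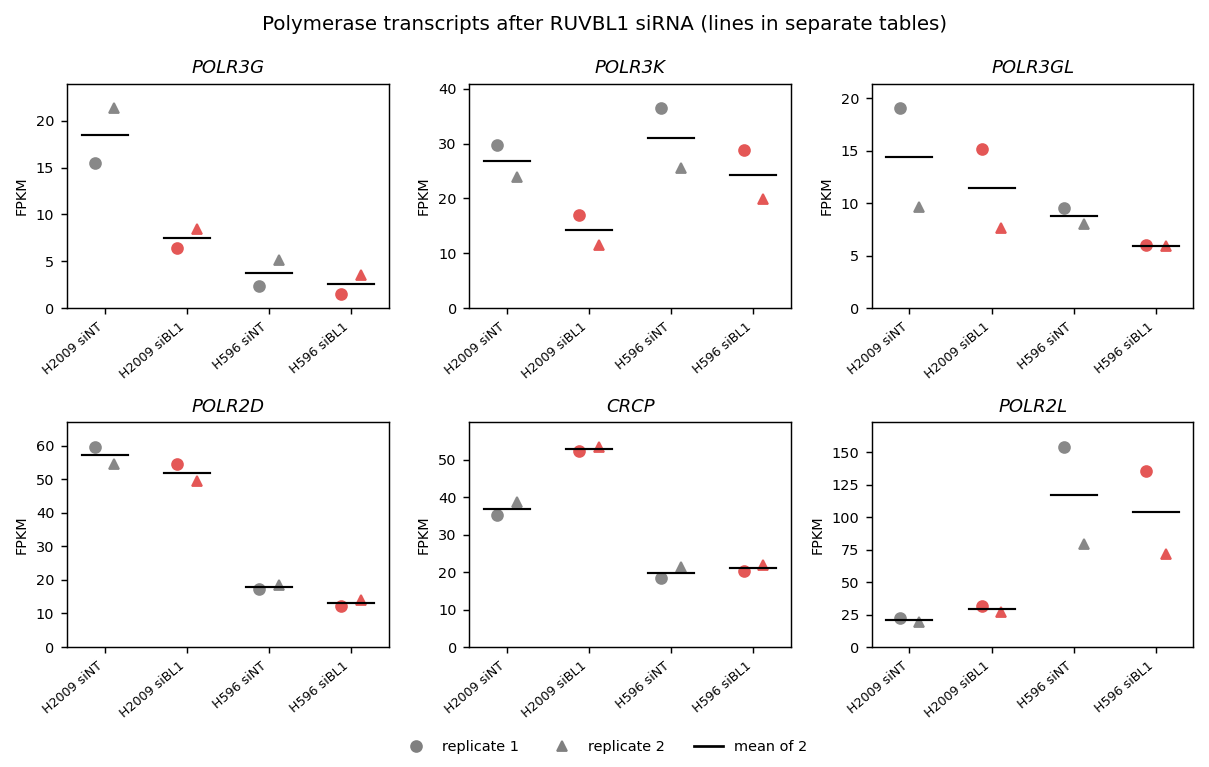
FPKM of 6 polymerase genes with siNT (grey) and siBL1 (red), circles for replicate 1, triangles for replicate 2 and a line for the mean of the 2 libraries; the lines come from separate tables, so levels are compared within a line. POLR3G and POLR3K were lower with siBL1 in each replicate of both lines, whereas POLR2L was higher in H2009 and lower in H596. In H596 the siBL1 and siNT libraries of these genes overlapped.

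POLR3G, POLR3K, POLR2H and POLR2G were called lower in both lines by the paired fit. That fit called 27.0% of all genes lower in H2009 and 26.6% in H596. The share of all genes lower in both lines was not counted, so nothing particular to these members is shown. POLR2H is shared by the 3 enzymes. Its levels were 45.9 and 14.6 FPKM with siBL1 against 64.7 and 21.3 with siNT in H2009, and 77.1 and 40.7 against 94.7 and 49.2 in H596. Members called higher in H2009 in that fit were CRCP, POLR2L, POLR2C, POLR2M, GPN3 and POLR3C. CRCP was at 52.5 and 53.6 FPKM against 35.3 and 38.7 (log2 difference 0.51, adjusted p = 0.981, paired 0.00459). POLR2L was at 31.5 and 27.2 against 22.7 and 19.6 in H2009, and in H596 at 136 and 71.9 against 155 and 79.4, where the paired fit called it lower. In H596 the 14 members called lower in the paired fit took in 4 of 6 Pol I members (POLR1E, POLR1B, CD3EAP and ZNRD1), 3 of 11 Pol III members, 3 of 10 Pol II members, 3 of the 5 subunits common to the 3 enzymes and 1 of the 2 shared by Pol I and III, POLR1D. The remaining ones included POLR3GL, POLR2D, POLR2I, POLR2E and POLR2L. POLR2D, of the Pol II stalk, was at 12.2 and 14 FPKM against 17.2 and 18.6 (log2 difference -0.42, adjusted p = 1, paired 0.000547). POLR1E, of the Pol I dimer related to TFIIF, was at 13.4 and 14.4 against 17.0 and 16.6 (-0.25, paired 0.0053).

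POLR2A, POLR1A, POLR3E and POLR3B, the genes that led with Compound B, were called after siRNA in neither fit and neither line. With quantile normalization, the paired fit called POLR2A higher in H2009 (log2 difference 0.37, adjusted p = 0.0145). POLR2A was at 126 and 33.7 FPKM with siBL1 in H2009 against 92.4 and 31.4, and at 40.8 and 31.6 against 40.9 and 29.8 in H596. Its log2 differences were 0.27 (95% interval -1.95 to 2.49, paired adjusted p = 0.0875) and 0.04 (-0.75 to 0.83, paired 0.436), and both signs turned when a siBL1 replicate 1 or a siNT replicate 2 was left out. For POLR2A replicate 1 was above replicate 2 by 1.87 (siBL1) and 1.53 (siNT) in H2009 and by 0.36 and 0.45 in H596. With 1 library left out the difference carries part of this gap, so the turns say little about the siRNA. POLR1A was at 13.9 and 8.18 against 16.3 and 10.8 in H2009, and at 14.3 and 12.3 against 15.1 and 12.8 in H596. POLR3E was at 8.54 and 6.23 against 10.9 and 7.91, and at 15.0 and 14.8 against 15.5 and 15.0. The siRNA and the compound differ in time of treatment and stand in separate tables, so the difference between them was not tested.

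Factors that work with the polymerases were read from lists of related genes, whose counts stand beside the shares of all genes already given (in H2009 with Compound B, 5.02% lower and 6.36% higher unpaired, and 19.5% and 18.8% paired). With Compound B in H2009 the unpaired fit called PAF1, of the complex that travels with elongating Pol II, lower (log2 difference -1.06, adjusted p = 0.00619) and CCNT1, the cyclin of the kinase that releases paused Pol II, higher (0.74, adjusted p = 0.049), 2 of 21 elongation factors. Of 16 Pol III factors, GTF3C2, a subunit of TFIIIC that recognises transfer RNA promoters, fell by 1.16 (adjusted p = 0.0108) and SNAPC2, of the complex that recognises small nuclear RNA promoters, fell by 0.78 (adjusted p = 0.0331) on the log2 scale. Of 11 assembly partners in R2TP and the prefoldin-like module, PFDN2 fell by 1.13 (adjusted p = 0.0436), and the list's median was -0.43, beside -0.01 over all genes. These calls also rest on few libraries: leaving out 1 of the 4 gave adjusted p of 0.0293 to 0.0515 for PAF1, 0.118 to 0.202 for CCNT1, 0.0306 to 0.0753 for GTF3C2, 0.0668 to 0.172 for SNAPC2 and 0.121 to 0.230 for PFDN2. None of 7 Pol I factors, 18 general Pol II factors or 7 factors of the Pol II C-terminal domain, not all of them phosphatases, passed. The largest differences there were TAF1A at -1.0, GTF2B at 1.08 and RPRD1A at 0.58 on the log2 scale. In the paired fit the counts lower and higher were 3 and 1 for the Pol I factors, 1 and 3 for the general factors and 7 and 4 for the elongation factors. They were 5 and 1 for the Pol III factors, 4 and 1 for the assembly partners and 0 and 1 for the C-terminal domain factors. Several of these counts lie near the shares of all genes, and nothing particular to a list was tested. With B in H596, and with C in either line, 0 genes of any of these lists were called in either fit.

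With RUVBL1 siRNA none of these genes passed the unpaired fit. In the paired fit 27.0% of all genes were lower and 15.4% higher in H2009, and 26.6% and 19.8% in H596, and the counts of the lists are to be read against these shares. The paired fit called 5 of the 11 assembly partners lower and 1 higher in H2009, and 6 lower and 0 higher in H596, with RUVBL1, the target of the siRNA and itself a member of the list, the largest in each. Of the 16 Pol III factors, 5 were lower and 2 higher in H2009, where GTF3A, which binds the 5S gene, had the largest difference at -0.77, and 5 were lower and 1 higher in H596, where GTF3C5 had the largest at -0.38. Of the Pol I factors, 2 of 7 were lower and 1 higher in each line, and RRN3, the factor that makes Pol I able to initiate, had the largest difference in H2009 at 1.06 (paired adjusted p = 0.000238). The elongation factors were called lower for 3 and higher for 6 of 21 in H2009, and lower for 8 and higher for 0 in H596. The general Pol II factors gave 4 lower and 3 higher of 18 in H2009 and 7 lower and 1 higher of 17 in H596. The C-terminal domain factors gave 2 lower and 1 higher of 7 in each line.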

How the data were processed

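RNA was made into libraries with a TruSeq Stranded mRNA kit, per the labels' protocols. Per the submitters' processing notes the tools were CASAVA 1.8.2, TopHat2 2.0.12 and Cufflinks 2.2.1 with the hg19 build; which step each served and the strand setting are not given in the sources used here. The authors deposited FPKM per gene in 3 tables. A total of 19 rows whose names had turned into dates were left out of the H2009 siRNA table. Another 8 libraries, of RUVBL1 and RUVBL2 complementary DNA, were not used here.

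FPKM was taken as log2(FPKM + 1), genes with a mean of at least 1 FPKM were kept (over 4 libraries, or over the 6 libraries of at least 1 line), and limma 3.58.1 in R 4.3.3 was fitted on all genes of a table with a mean-variance trend, group means only, Benjamini-Hochberg adjustment and a threshold of 0.05. The 12 compound libraries shared 1 estimate of the spread. The fit was also run on simulated data with independent noise, where the condition set was that mean estimates lay near the planted differences. That run does not show how many real differences the fit finds or misses here. The differences between replicates 1 and 2 correlated across genes in all 45 pairs of the 10 groups (r 0.459 to 0.966), and the pairing comes from this and from the numbers in the labels. The rule for the members reads names only, but it and the gene lists were chosen with earlier results of these data known. Statistics were given, per comparison, for members called unpaired (at most 12), filled to 6 with the largest differences whose groups did not overlap, and for genes already named; of each list, at most 3 called genes or, with none called, the 1 with the largest difference. Some members called only in the paired fit are also named, chosen after their values were seen. Alternatives were the replicate block, a pseudocount of 0.1, no filter, a minimum of 5 FPKM, quantile normalization, no trend, each line alone and each library left out. Promoters came from RefSeq (GRCh38.p14), another build than the files use, and were matched by name only.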

Additional observations from a re-analysis of the deposited data

Results flagged for a closer look

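POLR3A, the largest Pol III subunit, had differences of opposite sign in the lines after RUVBL1 siRNA, called in neither fit. Both siBL1 libraries of H2009 were above both siNT libraries (15.6 and 13.4 against 12.9 and 11.5 FPKM, log2 difference 0.23), and both siBL1 libraries of H596 were below both siNT libraries (4.90 and 5.32 against 5.35 and 5.88 FPKM, log2 difference -0.12). The difference between the lines was not tested, since they were treated for 2.5 and 3 days and stand in separate tables. Neither passed the paired fit (adjusted p = 0.128 and 0.093). Of all genes, 12.1% lay wholly higher with siBL1 in H2009 and 8.64% wholly lower in H596. The share that did both was not counted, so nothing particular to POLR3A is shown.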

How the results depend on the processing

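Counts of members called depended on the replicate term. With the replicate block (the paired fit) they were 10 and 14 for siRNA in H2009 and H596 (0 and 0 without it), 12 and 1 for Compound B (3 and 0), 14 and 1 for B against C (2 and 0) and 24 for the untreated lines (10). The block with quantile normalization, chosen after seeing the data, gave 14, 14, 12 and 1 for siRNA and for B in H2009 and H596. A block separate for each line, also added then, gave 12 and 1 for B and 16 and 1 for B against C. With the 6 H2009 libraries alone the counts were 0 for B and 0 for B against C. Leaving out 1 library gave 0 to 1 members for B in H2009, 0 to 4 for B against C in H2009, 6 to 8 for the untreated lines, and 0 for the other comparisons. Of 77 single differences recomputed, all kept their sign under every alternative except 6 of POLR2A and 1 of POLR3G when 1 library was left out. POLR2A then gave -0.64 to 0.88 and -0.44 to 0.53 with Compound C in H2009 and H596, -0.67 to 1.21 and -0.18 to 0.26 after siRNA in H2009 and H596, -0.72 to 0.38 between the untreated lines and -0.77 to 0.33 for the difference of the B effects. POLR3G after siRNA in H596 gave -0.87 to 0.018. Leaving out 1 library sets unlike replicate numbers against each other. Replicate 1 was above replicate 2 for POLR2A in every group, and below it for POLR3G in both siRNA groups of H596. These changes of sign therefore carry part of the gap between replicates and say little about the treatments. The depth is unknown, and 2 libraries a group limit the precision.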
